A study of Caenorhabditis elegans with 2 samples.

Results

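The histone genes of Caenorhabditis elegans were examined for occupancy by SNPC-4. They were taken as the genes of the RefSeq annotation of the genome assembly WBcel235 whose symbol is his- followed by a number, which gave 72 of 46926 annotated genes, all of them among its 19983 protein-coding genes. SNPC-4 was profiled by ChIP-seq, which sequences the DNA that an antibody pulls down together with a chromatin protein. The worms were mixed-stage embryos, whole and of mixed sex, from strain OP179, genotype unc-119(ed3) III; wgIs179, in which an inserted transgene supplies SNPC-4 fused to eGFP. The labels give snpc-4 as the antibody's target and a fragment size range of 150 to 350, without a unit. There were 2 libraries, biological replicates 1 and 2 of a single group, and the control experiment that the labels name was not analysed here, so every value below describes 1 condition.

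SNPC-4 is the worm counterpart of a DNA-binding subunit of the small nuclear RNA-activating protein complex (SNAPc), which is best known for starting transcription at the short genes of the spliceosomal small nuclear RNAs (snRNAs) and the spliced leader RNAs. Histones are the proteins around which DNA is wound. The core histones H2A, H2B, H3 and H4 build the nucleosome, H1 binds the DNA between nucleosomes, and H3.3 is an H3 variant that can be deposited outside DNA replication. Most worm histone genes are short genes in clusters, where an H2A gene and an H2B gene, or an H3 gene and an H4 gene, stand back to back and are transcribed away from each other. An embryo that divides quickly needs core histones in bulk.

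Each library, and both pooled, came as a list of 30000 candidate regions, which holds weak regions by construction. A region was counted for a gene when its summit, the position of highest signal, lay within 200 bp of the gene body. Regions were ranked within a list by the authors' signal value, rank 1 being the strongest. "Strong" below means a place among the top pooled regions, as many as the authors' thresholded list on the older build ce10 holds, because the thresholded list on ce11 held 213 peaks on 1 chromosome. Signal values were compared between lists only by rank or percentile. The pooled list ran from a signal of 6.656 to 4055.2 with a median of 9.629, and the last strong region stood at 31.34. The corresponding medians were 5.46 in replicate 1 and 5.902 in replicate 2. Read depth is unknown.

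Histone genes had 6 strong regions, and 5 of the 6 stood between the starts of a back-to-back pair. The DNA under 5 of the summits is shown, because 4 of these windows carry a sequence word that recurs between histone genes. The fifth, at his-61/his-62, has its 2 copies outside the window, and the region between his-67 and his-68 is not printed. Each sequence is the summit base of the pooled list with 50 bases either side, plus strand of ce11, read from the RefSeq genome WBcel235, and the capitals mark the word CTGCGGGGAC or its reverse complement GTCCCCGCAG, with at most 1 letter changed. The windows are chrV:9546940-9547040 for his-37, chrIV:8334121-8334221 for his-31/his-32, chrV:16040578-16040678 for his-4/his-3, chrIV:7486332-7486432 for his-61/his-62 and chrIV:7488061-7488161 for his-60/his-59. The last sequence is the whole interval between the starts of his-16 and his-15, chrII:13818144-13818370. It is shown as one of the repeated intervals, with 3 exact copies in the genome, and it held no candidate region in any list.
his-37: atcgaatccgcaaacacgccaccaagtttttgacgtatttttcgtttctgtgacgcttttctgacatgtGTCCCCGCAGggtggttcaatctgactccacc
his-31/his-32: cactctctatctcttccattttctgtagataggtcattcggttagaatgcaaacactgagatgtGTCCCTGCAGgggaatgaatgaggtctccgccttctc
his-4/his-3: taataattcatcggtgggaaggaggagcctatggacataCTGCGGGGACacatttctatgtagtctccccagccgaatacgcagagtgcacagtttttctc
his-61/his-62: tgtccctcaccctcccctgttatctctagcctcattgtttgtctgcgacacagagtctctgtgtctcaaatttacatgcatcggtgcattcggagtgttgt
his-60/his-59: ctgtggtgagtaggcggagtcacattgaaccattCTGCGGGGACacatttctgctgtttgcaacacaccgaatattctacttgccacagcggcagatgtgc
his-16/his-15: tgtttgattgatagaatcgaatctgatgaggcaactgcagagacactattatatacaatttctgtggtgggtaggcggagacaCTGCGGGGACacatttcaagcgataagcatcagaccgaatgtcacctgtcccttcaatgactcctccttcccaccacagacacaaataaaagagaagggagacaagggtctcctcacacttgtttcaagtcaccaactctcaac

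Of the 72 genes, 67 fell into 14 clusters of 2 to 13 genes less than 5 kb apart, and 5 stood alone. The single genes were his-24, which encodes the linker histone H1, his-71, his-72 and his-74, of H3.3 or H3.3-like type, and his-73, a short gene annotated only with a histone domain. The genes were 141 to 1576 bp long with a median of 384 bp, and 64 of them had 1 exon. For the same number of genes, 64, the annotated body is coding sequence from end to end, so that the "start" of such a gene is its start codon and not a mapped transcription start.

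**Figure D1:**
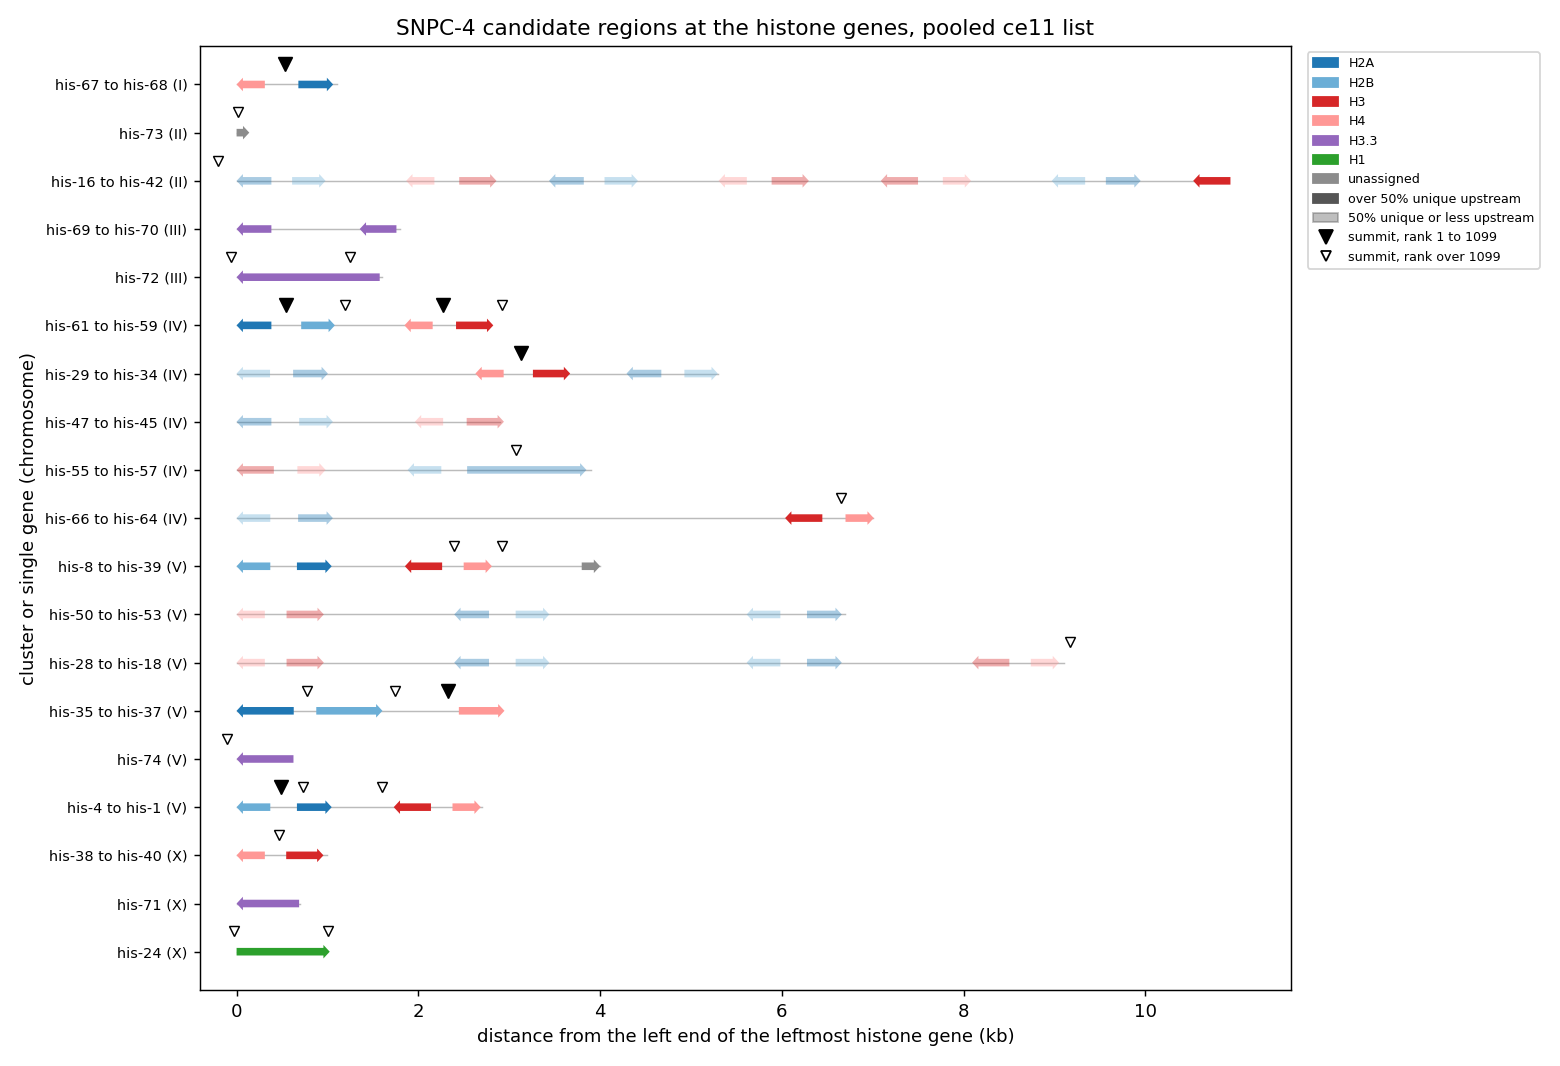
Map of the histone genes, one row for each cluster or single gene with its chromosome, with distance in kb along the horizontal axis; arrows are genes coloured by histone type and pointing in the direction of transcription, and pale arrows mark genes of which 50% or less of the 200 bp before the start is unique sequence. Filled triangles are strong pooled summits and open triangles weaker ones: 5 of the 6 filled triangles stand between 2 genes that point away from each other, and the long clusters of pale arrows hold few triangles.

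A pooled candidate region was present at 25 of the 72 histone genes (34.7%, 95% Wilson interval 24.8 to 46.2%), against 53.3% of protein-coding genes. A region in all 3 lists was present at 17 histone genes (23.6%, 15.3 to 34.6%), against 33.4% of protein-coding genes. This count takes any region near the gene in each list, so the 3 lists can hold different regions of 1 gene. The best region was not the same one in all 3 lists at his-2, his-5, his-24, his-35, his-41 and his-62. A strong region was present at 10 histone genes (13.9%, 7.72 to 23.7%), against 3.21% of protein-coding genes. Over all 72, the histone genes thus stood below the background in regions of any strength and above it in strong ones. The share with any pooled region differed with repeated sequence before the start, described below: 3 of 40 genes with it had one. Of the other 32 histone genes, 22 had one. Such sequence marked 55.6% of histone genes against 3.53% of protein-coding genes, and the background was not split by it. Short genes give a summit less room: among the 3693 protein-coding genes under 1 kb, 29.5% had a pooled region and 1.87% a strong one. The share of histone genes with any pooled region was close to that of short genes, and the share with a strong one was the higher. These intervals cover counting error only, and neighbouring genes share regions, so the genes are not independent of each other. In all, 29 histone genes had a region in at least 1 list and 43 had none.

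In strong regions the histone genes lay between the snRNA genes and the ribosomal protein genes. Their share with a pooled region, counted with the genes of repeated sequence before the start, was the lowest of the classes set beside them. Of the 78 ribosomal protein genes, another family in high demand in growing embryos, 38 (48.7%) had a pooled region and 5 (6.41%, 2.77 to 14.1%) a strong one. Of 99 snRNA genes, the known targets of SNAPc, 70 (70.7%) had a pooled region and 60 (60.6%, 50.8 to 69.7%) a strong one. The interval for strong regions at histone genes overlapped that of the ribosomal protein genes and did not reach that of the snRNA genes. Among genes with a region, the median percentile of the best region, where 100% would be the top of the list, was 82.9 for histone genes in the pooled list. It was 84.5 in replicate 1 and 91.7 in replicate 2. In the same order of lists the medians were 69.4, 66.1 and 75.5 for ribosomal protein genes, 99.5, 99.5 and 99.4 for snRNA genes, and 63.8, 62.5 and 63.4 for protein-coding genes. The order of the 4 classes was topped by the snRNA genes and then the histone genes in each list.

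**Figure D2:**
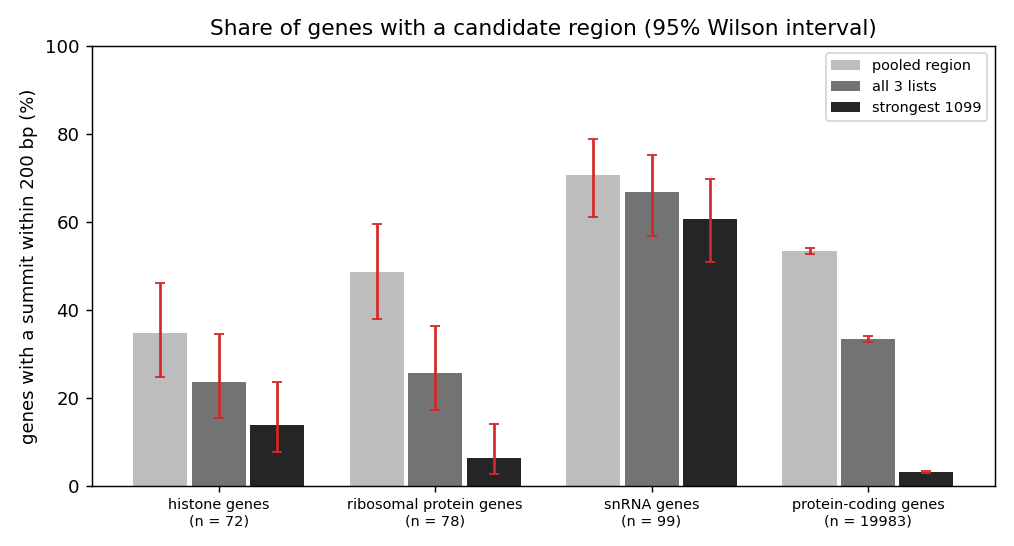
Percent of genes with a summit within 200 bp of the gene body, for histone, ribosomal protein, snRNA and all protein-coding genes; bars give the share with a pooled region, a region in all 3 lists and a strong region, and error bars are 95% Wilson intervals. Histone genes, counted with those of repeated sequence before the start, have the lowest share with a pooled region (34.7%). Their share with a strong region (13.9%) is above that of protein-coding genes (3.21%) and below that of snRNA genes (60.6%).

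By type, H4 had the most genes with a pooled region, 7 of 16, of which 3 were strong. H2A had 6 of 17, with 3 strong, and H3 had 5 of 15, with 2 strong. H2B had 3 of 16, with 2 strong. Of the 5 H3.3 and H3.3-like genes, 2 had a pooled region and 0 a strong one. The single H1 gene had a region that was not strong, and of the 2 genes that the annotation does not assign to a type, his-39 and his-73, 1 had a weak region. All 4 core histones were represented among the strong regions, and the counts per type are too small to separate the types from each other.

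The strongest region lay between his-67, an H4 gene (chrI:9988452-9988763), and his-68, an H2A gene (chrI:9989132-9989515). Its signal was 95.4 in the pooled list (rank 188), 56.83 in replicate 1 (rank 152) and 40.24 in replicate 2 (rank 249). The pooled summit stood at -143 bp from the start of his-68, negative distances being upstream. The interval is 368 bp long, so this summit was over 200 bp from his-67, while the replicate 2 summit was within 200 bp of his-67 only, and neither gene alone met the rule in all 3 lists. In the thresholded ce11 list the same place held a peak of signal 95.7 (rank 22), and his-68 was the 1 histone gene with such a peak. That list covers chromosome I alone, which holds this pair and no other histone gene.

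The second region lay before his-37, an H4 gene (chrV:9547105-9547607) with 2 exons at the end of a cluster of 3 genes. It was the 1 strong region outside the interval of a back-to-back histone pair. Its signal was 66.06 in the pooled list (rank 315), 31.82 in replicate 1 (rank 348) and 37.77 in replicate 2 (rank 265). Its summits stood at -115 bp (pooled), -112 bp (replicate 1) and -154 bp (replicate 2) from the start. With piRNA genes left out of the search, the nearest gene that is not a histone gene was the protein-coding C50F4.6, at 149 bp from the summit. That is within the 200 bp used here, so the region could belong to that gene as well as to his-37. These lists do not tell them apart.

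The third region lay between his-31 (H4, chrIV:8333672-8333983) and his-32 (H3, chrIV:8334305-8334715). Its signal was 54.86 in the pooled list (rank 417), 31.27 in replicate 1 (rank 358) and 23.11 in replicate 2 (rank 571). The summit was at -188 bp from the start of his-31 and -134 bp from that of his-32. This pair stands inside a cluster of 6 genes whose other 4 members, H2A and H2B genes, had no region in any list. In those 4 genes 0.0% of the 200 bp before the start was unique sequence, as scored below, against 100% at his-31 and his-32.

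The region between his-4 (H2B, chrV:16040144-16040515) and his-3 (H2A, chrV:16040808-16041191) had a signal of 41.55 in the pooled list (rank 645), 19.73 in replicate 1 (rank 824) and 19.92 in replicate 2 (rank 776). Its pooled, replicate 1 and replicate 2 summits lay within 3 bp of each other. A gene for a non-coding RNA, T10C6.19, lay 21 bp from this summit, so the region could belong to that gene as well as to the histone pair, and these lists do not tell them apart. A second, weaker region with its summit inside the body of his-3 (rank 3908) was matched in replicate 1 (rank 2048) and had no summit within 200 bp in replicate 2.

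One cluster of 4 genes on chromosome IV held 2 strong regions, and each of its 4 genes had a region in all 3 lists. For his-62 the replicate 2 region was another, weak one, with a signal of 5.859 (rank 15236) at 490 bp after the start and beyond the gene's end, because the replicate 2 summit of the strong region was over 200 bp from his-62. Between his-61 (H2A, chrIV:7485834-7486217) and his-62 (H2B, chrIV:7486545-7486916) the signal was 40.35 in the pooled list (rank 697), 24.38 in replicate 1 (rank 556) and 15.61 in replicate 2 (rank 1220). Between his-60 (H4, chrIV:7487681-7487992) and his-59 (H3, chrIV:7488249-7488659) it was 37.2 in the pooled list (rank 816), 18.96 in replicate 1 (rank 889) and 22.06 in replicate 2 (rank 633). Replicate 1 ranked the first of these pairs higher than the second, and replicate 2 ranked them the other way round, so their order is not settled. The replicate 2 rank of the his-61/his-62 region was the only replicate rank of the 6 strong regions outside the strong range.

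Just below the strong range stood 2 regions of another kind. One, at rank 1178 with a pooled signal of 30.17, was counted for his-16, an H2A gene (chrII:13817760-13818143). Its summit lay beyond the end of the gene and inside the protein-coding gene ZK131.11, with replicate summits of rank 3314 and rank 857 at 102 bp and 17 bp from it. Both replicate summits lay more than 200 bp from his-16, so the gene itself had a region in the pooled list alone. The other, at rank 1188 with a pooled signal of 30.05, lay inside the H1 gene his-24 (chrX:14490094-14491119), 1003 bp after its start and near its end. It was matched in replicate 2 (signal 23.44, rank 562) and had no summit within 200 bp in replicate 1. A further region stood just before the start of his-24, with a pooled signal of 18.25 (rank 3011), 6.152 in replicate 1 (rank 11592) and 13.33 in replicate 2 (rank 1758). A gene for a non-coding RNA, M163.19, overlaps that summit. At his-24 the region near the gene's end was thus found in 1 replicate, and the upstream region ranked higher in replicate 2 than in replicate 1.

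The H3.3 and H3.3-like genes carried weak regions or none. The best pooled region at his-72 (chrIII:12367475-12369050) had a signal of 14.67 (rank 5117) and lay beyond the end of the gene, with 6.764 in replicate 1 (rank 9307) and 6.494 in replicate 2 (rank 12151). The region at his-74 (rank 8689) also lay beyond the gene's end. his-69 had a region in replicate 2 alone (rank 19203), and his-70 and his-71 had none in any list.

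The 25 genes with a pooled region shared 25 distinct regions, since some genes had more than 1 and 7 regions served 2 genes. Of the 25 regions, 9 lay between the starts of a back-to-back pair, 9 beyond a gene's end, 5 inside a gene body and 2 before a start that faces no histone start. All 5 strong pair regions came from the first class and the sixth, his-37, from the last, so 0 of the 14 regions inside genes or beyond their ends were strong. Both replicates had a summit within 200 bp of the pooled summit for 14 of the 25 regions, including all 6 strong ones. A gene for a non-coding RNA, piRNA genes not counted, lay within 200 bp of 4 of the 25 regions, and 1 of the 4 was strong (T10C6.19, above). snRNA, snoRNA and tRNA genes are kinds of short gene that could lend a region to a neighbour. The nearest of them was 4568 to 166702 bp from the strong summits. piRNA genes, which are also short, were left out of these searches, so their distances from the summits are not known here.

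**Figure D3:**
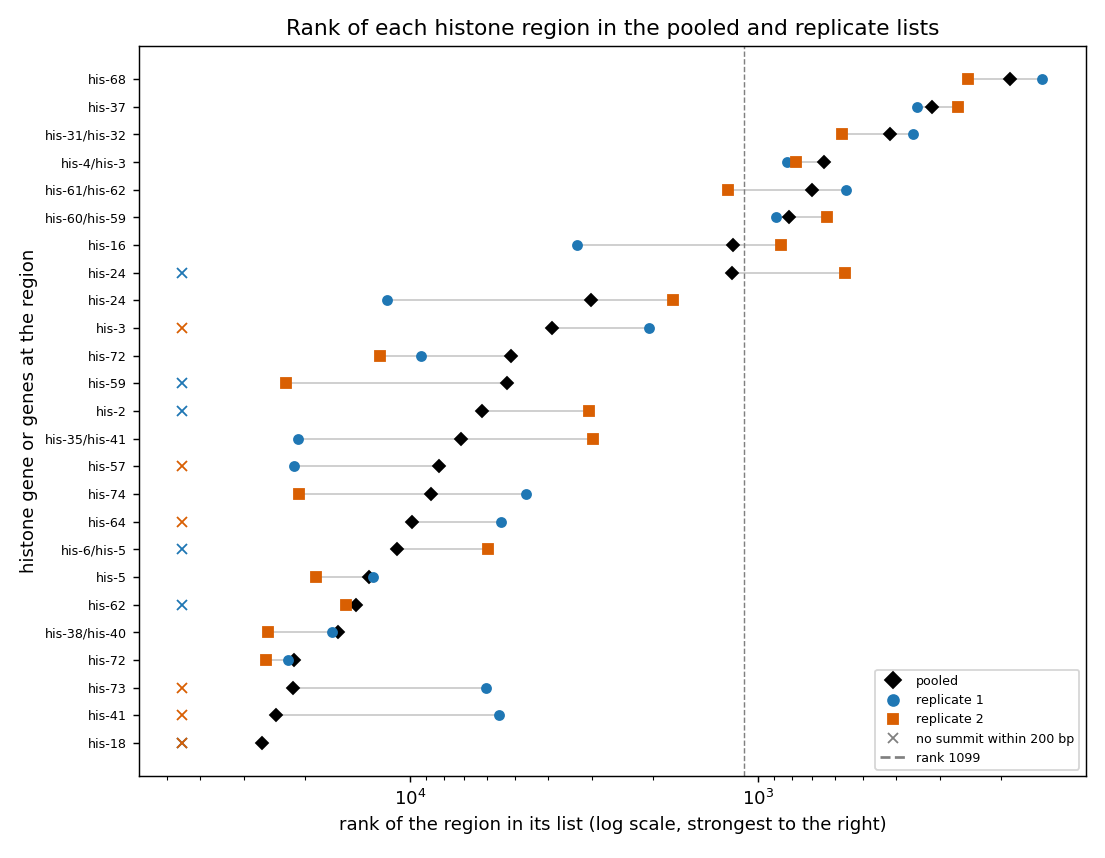
Rank of each of the 25 distinct histone regions in the pooled list (diamonds), replicate 1 (circles) and replicate 2 (squares), on a log scale with the strongest to the right; crosses at the left mark a replicate with no summit within 200 bp of the pooled summit, and the dashed line marks the last strong rank. Each of the 6 strong regions has a summit in both replicates, with ranks from 152 to 1220 over the 3 lists, while 8 of the other 19 regions do so.

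Across the genome, 31 back-to-back pairs were counted in which 2 histone genes point away from each other with 227 to 368 bp between their starts. Of the 31 pairs, 9 had a pooled summit between the starts, 5 had a strong one and 6 had one in all 3 lists. The replicate 1 list had a summit in 7 pairs and the replicate 2 list in 8. The pairs were 16 of H2A with H2B (3 with a pooled summit, 2 strong), 14 of H3 with H4 (5 and 2) and 1 of H2A with H4 (1 and 1, his-67/his-68). Among intervals over 50% unique, as scored below, 3 of 4 H2A with H2B pairs and 5 of 6 H3 with H4 pairs had a pooled summit. The strong regions were therefore not restricted to 1 kind of pair. Taking the pair as the unit, and splitting pairs by sequence uniqueness as below, were choices made after the values had been seen.

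Most histone intervals are repeated in the genome, and this split the pairs cleanly. An interval was scored by the share of its 30-base words that occur once in the genome on either strand, which is 91.1% of words over the whole genome. In 11 pairs 74.1 to 100% of the words were unique, and 9 of these 11 had a pooled summit, 5 of them strong. In the other 20 pairs 0.0 to 13.1% were unique, and 0 of the 20 had a summit in any list. The 2 unique pairs without one were his-8/his-7 and his-2/his-1. The same 11 pairs came out above 50% with words of 25 bases. For comparison, 283 other back-to-back protein-coding pairs of the same range of gaps were counted. Of their 273 intervals over 50% unique, 48.4% had a pooled summit and 8.79% a strong one. Of the 10 intervals that were 50% unique or less, 20.0% had a pooled summit. Reads from identical copies may be dropped or shared out before regions are called, so an empty repeated pair and an unread one cannot be told apart in these lists.

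**Figure D4:**
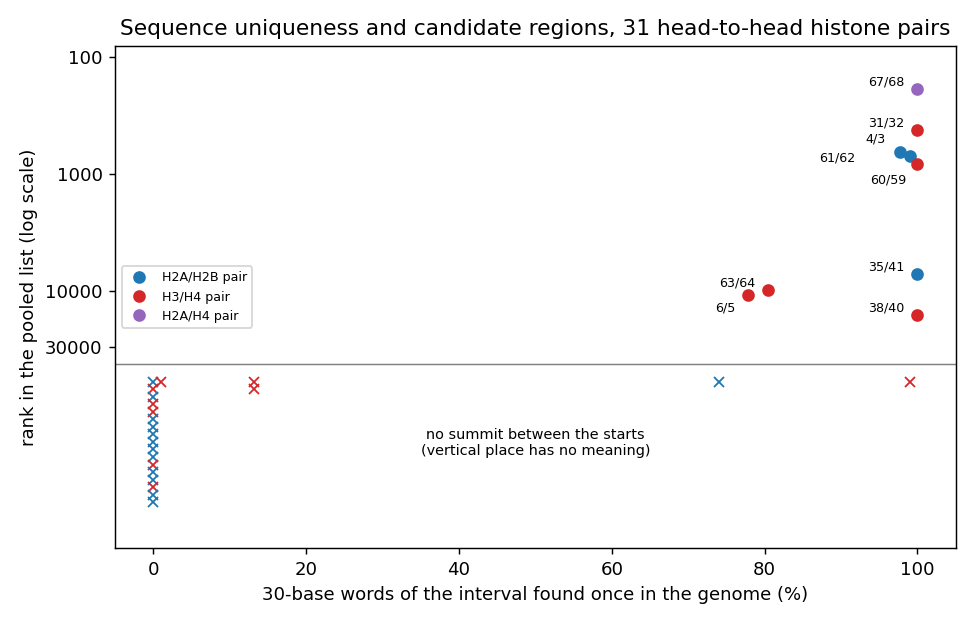
Share of each interval's 30-base words found once in the genome (horizontal) against the rank of its pooled summit (vertical, log scale, strongest at the top) for the 31 back-to-back histone pairs, coloured by the types of the pair and named by their gene numbers; crosses below the line are pairs with no summit, stacked for legibility. All 9 pairs with a summit lie at the right, over 50% unique, and all 20 repeated pairs are crosses at the left.

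The same split held gene by gene. Of the 32 histone genes with over 50% unique words in the 200 bp before the start, 22 had a pooled region, 17 a region in all 3 lists and 10 a strong one. Of the 40 genes at 50% or less, 3 had a pooled region (his-16, his-57 and his-18) and 0 a strong one, and 36 had no region in any list. The summits of those 3 regions lay in sequence that was itself 87.5 to 100% unique. At his-3, a gene of the over 50% set, the weaker region inside the gene body (rank 3908) was an exception. Within 50 bp of its summit 0.0% of the words were unique. Repeated upstream sequence marked 55.6% of histone genes against 3.53% of protein-coding genes. Over whole lists, summits in repeated sequence were rare: 0.343% of pooled, 0.297% of replicate 1 and 0.370% of replicate 2 summits had no unique word within 50 bp, against 4.60% of windows laid every 1000 bp along the genome. Of the 43 histone genes without a region in any list, 36 were in the repeated set.

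Within the back-to-back intervals the summits stood away from both starts. Over the 5 strong pair regions the nearer start was 113 to 163 bp away (median 134 bp), and the summit fell at 38.7 to 61.4% of the interval's length. Over all 9 pairs the nearer start was 45 to 163 bp away (median 113 bp), at 38.7 to 82.7% of the length. In the 6 pairs with a summit in both replicates, the replicate summits were 3 to 37 bp apart. The distance of the strong summits from the starts was thus larger than the spread between the replicates.

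The word CTGCGGGGAC was found by searching the back-to-back histone intervals for the 10 letters that recur in the most of them with at most 1 letter changed, on both strands. It was chosen after the values had been seen, and its count in these intervals follows from that choice. It was present in 29 of the 31 intervals (93.5%), exactly in 11, in unique and repeated intervals alike: 9 of 11 and 20 of 20. Of the 283 other back-to-back intervals, 1 (0.353%) held it with at most 1 letter changed and 0 held it exactly. In promoters, taken as 250 bases before to 50 after each start, the exact word was present at 24 of 72 histone genes (33.3%) and at 28 of 19983 protein-coding genes (0.140%), a count that includes the histone genes. With at most 1 letter changed it was present at 60 histone genes (83.3%) and at 120 protein-coding genes (0.601%).

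The word also lay close to the summits, whose positions the search did not use. The intervals are at most 368 bp long, so any place near their middle lies close to these summits. The his-67/his-68 interval holds 3 copies, and those of his-61/his-62 and his-4/his-3 hold 2 each, with at most 1 letter changed. More copies bring the nearest one closer to any summit. The distance from the pooled summit to the middle of the nearest copy was 6.5 bp at his-4/his-3, 10.5 bp at his-67/his-68, 11.5 bp at his-60/his-59, 18.5 bp at his-31/his-32, 23.5 bp at his-37 and 69.5 bp at his-61/his-62. The copy at his-31/his-32 has 1 letter changed and the other 5 are exact. The nearest copy at his-61/his-62 falls outside the bases printed above. In that interval the replicate 2 summit was 31.5 bp and the replicate 1 summit 55.5 bp from that copy. At his-67/his-68 the copy was farther from both replicate summits, 49.5 bp in replicate 1 and 77.5 bp in replicate 2. At his-31/his-32 it was 53.5 bp from the replicate 1 summit and 18.5 bp from that of replicate 2. Replicate summits were 3.5 to 15.5 bp from the copy at his-4/his-3 and his-60/his-59. Neither his-37 nor his-24 has a histone partner in a back-to-back pair, so neither was among the intervals searched. The summits before their starts had exact copies at 23.5 bp and 27.5 bp. With at most 1 letter changed the word was present at 60 of 72 histone promoters, so a copy before a histone gene is common. The stronger region at his-24, of rank 1188, had 0 copies near its summit. Within 100 bp of the strong summits of the whole pooled list the exact word occurred at 5 regions (0.455% of strong regions). All 5 were strong histone regions named above. With at most 1 letter changed, the word occurred at 11 strong regions (1.00%), of which 6 were at histone genes and 5 were not, and at 87 of the 28901 weaker regions (0.301%). The exact word occurred at 9 of the 28901 weaker regions (0.0311%) and, exact or with 1 letter changed, at 0 of the 57 strong regions at snRNA genes. A match is a description of the letters and does not show that a protein binds them.

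Intervals with the word ranged from strong to empty. Among the 11 unique intervals, 9 held it, and of these 7 had a pooled summit and 5 a strong one. The 2 without it, his-35/his-41 and his-38/his-40, both had a pooled summit, of rank 7147 and rank 16091. The 2 unique pairs that had no summit, his-8/his-7 and his-2/his-1, held it with 1 letter changed.

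**Figure D5:**
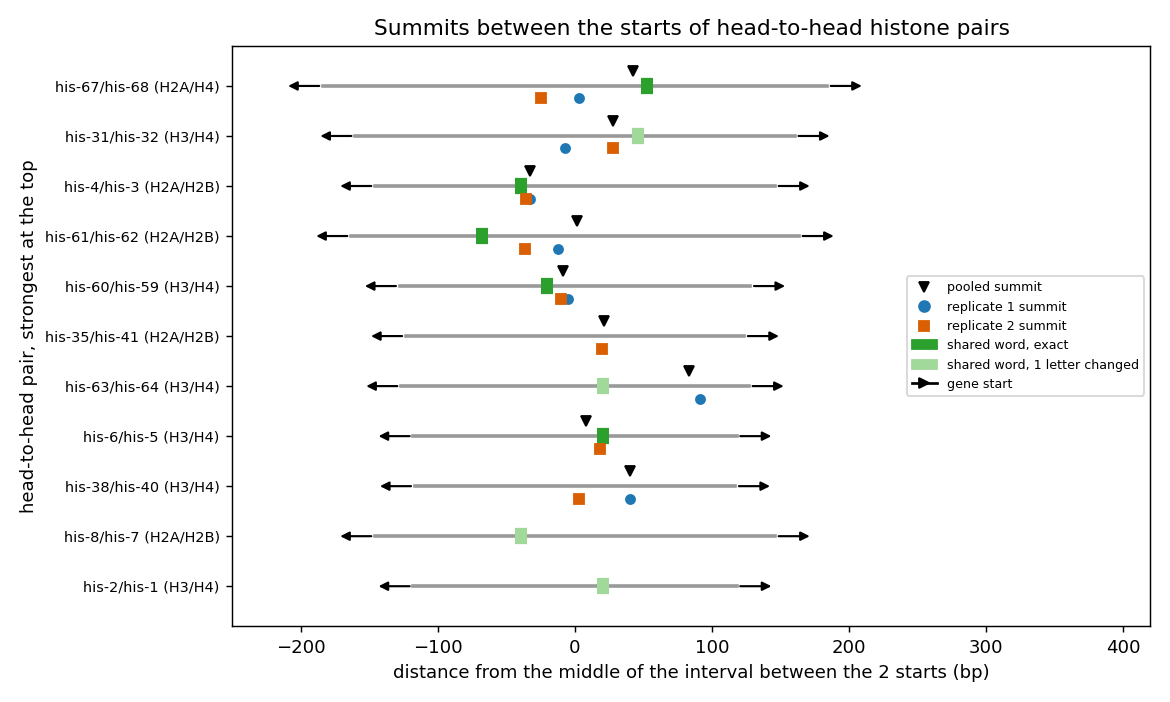
The 11 back-to-back histone intervals over 50% unique, centred on their middle, with distance in bp on the horizontal axis and the pair with the strongest pooled summit at the top; arrows mark the gene starts, triangles, circles and squares the pooled, replicate 1 and replicate 2 summits, and green blocks the shared word, dark where exact and pale with 1 letter changed. Only 1 copy of the word is drawn in an interval, also where it holds more. The 5 strong pairs at the top have all 3 summits within the interval and a copy of the word 6.5 to 69.5 bp from the pooled summit.

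Common promoter words were counted in the same promoters. They are shorter than the shared word, which was picked from the histone intervals themselves, so their shares cannot be set against its shares. TATAAA, the core of the TATA box, was present on either strand in 47 of 72 histone promoters (65.3%) against 38.0% of protein-coding promoters, and in 7 of the 10 with a strong region. CCAAT was present in 39 (54.2%) against 45.6%, and in 5 of the 10. CTGTTTC, the opening letters of the motif before worm piRNA genes, was present in 2 histone promoters (2.78%) against 6.17%, and in 0 of the 10. None of these contains the shared word or lies within it.

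The spaces where histone genes end facing each other were counted in the same way. There were 16 such intervals of 577 to 1622 bp, and 2 of them held a pooled summit, of which 0 were strong. Both belonged to the 6 intervals over 50% unique, which were 619 to 1622 bp long. Of the 11 back-to-back intervals over 50% unique, 234 to 368 bp long, 9 held a pooled summit. The intervals are few and differ in length. These spaces carry a 30-base word with 53 copies in the genome, which lay 20 to 46 bp (median 31 bp) beyond the end of 52 of the 72 histone genes.

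Other genes of histone supply were taken from a list of 24, all found in the annotation. A pooled region was present at 17 of the 24, a region in all 3 lists at 10 and a strong one at 2. Over all protein-coding genes the shares were 53.3%, 33.4% and 3.21% in the same order. Whether the 24 genes differ from that background was not tested. Among 11 genes of histone variants and H1-like proteins, 8 had a pooled region and 1, hil-7, a strong one. hil-7, which encodes an H1-like protein, had a signal of 63.89 in the pooled list (rank 329), 41.39 in replicate 1 (rank 227) and 21.73 in replicate 2 (rank 656), with the pooled summit at -123 bp from its start. Among 12 chaperone and assembly genes, 8 had a pooled region and 1, hira-1, a strong one. hira-1 encodes the worm relative of the H3.3 chaperone HIRA, and its signal was 84.14 in the pooled list (rank 214), 31.46 in replicate 1 (rank 355) and 51.2 in replicate 2 (rank 179). That summit lay 2082 bp after the start, inside the gene. The gene cdl-1, for the protein that binds the stem-loop of histone mRNAs, had a weak pooled region of rank 25343. Many of these genes are longer than the histone genes and offer a summit more room, so their shares are not set against each other.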

How the data were processed

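The members, lists and alternatives were chosen with earlier results of these data known. Per the labels, the deposited lists were ranked candidate regions meant as input to an irreproducible discovery rate (IDR) analysis, plus a thresholded list. The signal of each region and its summit were used as the authors gave them. For the aligner, the peak caller and the IDR cut-off, nothing is given in the sources used here. The 4 lists on ce11 were used, since the RefSeq annotation and genome WBcel235 match that build, and of the ce10 lists only the length of the thresholded one, 1099 regions, was used, to define strong regions. Summits were assigned to genes within 200 bp, clusters were genes less than 5 kb apart, back-to-back pairs had starts under 1 kb apart, and facing gene ends were under 2000 bp apart. Word uniqueness counted exact 30-base words on both strands of the genome. Shares carry Wilson intervals at 95%, which cover counting error only. No hypothesis test was made, because 1 group of 2 libraries gives no contrast. Nothing in the labels says how the replicate cultures were grown.

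The genes named were every histone gene with a strong region, the strongest member of each type, single genes with a region in all 3 lists (his-24 and his-72), and those just inside and just outside the strong set. Others were named after their values were seen. Assignment and word counting were tested on simulated data. The tools were Python 3.11.15, numpy 2.4.6, scipy 1.17.1, Biopython 1.88 and matplotlib 3.10.9. Distances, list lengths, single replicates, overlap instead of summit, cluster distance and word length were varied.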

Additional observations from a re-analysis of the deposited data

How the results depend on the processing

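The window around the gene body mattered most. With summits inside the body only, a pooled region was left at 5 genes, a region in all 3 lists at 1, a strong region at 0 genes and 0 clusters, and 5 distinct regions remained. Within 100 bp these values were 8, 2, 0, 0 and 10, because the strong summits lie 113 bp or more before the starts. Within 1000 bp, 28 genes had a region in all 3 lists. Counting summits within 200 bp of the start alone gave 13 distinct regions. A region in all 3 lists was present at 8 genes among the strongest 5000 of each list, at 7 when each list was held to as many regions as the strong set (chosen after seeing the data) and at 1 when held to 50% of that number. The strongest 50% of the strong set touched 4 genes in 3 clusters. Within 500 bp, 2 genes had a thresholded peak.

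With either replicate's list in place of the pooled one, genes with a region numbered 22 to 23, genes with a strong region 9 to 11, distinct regions 22 to 26, clusters with a strong region 5 to 5, pairs with a summit 7 to 8, and the median percentile was 84.5 to 91.7. Against genes under 1 kb the background was 29.5% in place of 53.3%. No paired analysis was possible because there is 1 group. Limits are the unknown read depth, the control, not analysed here, and repeated sequence, where a missing region cannot be told apart from reads that could not be placed.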
